A study of Mus musculus with 18 samples.

Results

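The genes described are the 8 enzymes and regulators Srebf1, Srebf2, Hmgcs1, Sqle, Acaca, Fasn, Scd1 and Scd2, which make sterols and fatty acids or control their making. They were taken as the rows of the deposited tables whose Ensembl gene identifier maps to those symbols, and all 8 of 8 were found among 55469 gene identifiers. No measured value entered that rule, but the 8 genes were listed with earlier results of these data known.

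RNA-seq of ventral and lateral prostate tissue from 18 male mice asked how mutation of Elac2, the RNase Z that trims the 3′ ends of tRNA precursors, alters a tumour-prone prostate. All mice, controls included, carried 1 copy of TRAMP, a transgene in which the probasin promoter drives SV40 T antigens in prostate epithelium, on a background labelled C56NL/6N. WT-TRAMP mice had wild-type Elac2. KO-TRAMP mice were homozygous for a conditional allele whose exon 8 was removed by Pb-Cre, so the deletion was limited to cells that use the probasin promoter and other cells of the lobes kept the gene. A537T-TRAMP mice were homozygous in every tissue for the A537T alanine to threonine change, introduced by genome editing. Each genotype was sampled at 10 and at 30 weeks of age with 3 mice (n = 3 per group throughout). Libraries are called by the numbers in the column headers, where WT-TRAMP was 1 to 3 at 10 weeks and 10 to 12 at 30 weeks. KO-TRAMP was 7 to 9 and 16 to 18, and A537T-TRAMP 4 to 6 and 13 to 15, younger mice first. The reference for both mutant lines was WT-TRAMP of the same age, read from the table of the line, so both lines were set against the same 3 WT-TRAMP mice and their comparisons are not independent.

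Depth, as reads recovered from the normalized values, was 9380174 to 14830104 per library. Elac2 itself was summed over all exons, so the loss of 1 exon is not seen on its own. It overlapped between each line and WT-TRAMP at both ages, with log2 fold changes from -0.22 to 0.047. Several libraries stood apart in RNA of other tissues or cell types. Genes of the seminal vesicle took over 1% of the reads in libraries 5 (9.05%), 6 (1.25%), 9 (1.63%), 10 (4.35%), 12 (1.9%), 13 (5.45%) and 15 (2.65%) and at most 0.266% in the others. Neuroendocrine markers took 0.147% and 0.091% of the reads in libraries 17 and 18, against 3.56e-05% in library 16 and 4.09e-05% to 0.0103% in WT-TRAMP of that age. A lower level in such bulk RNA may come from fewer cells of a type or from less RNA per cell, and these cannot be told apart.

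Sterols and fatty acids are made from acetyl-CoA by enzymes whose genes are switched on by the SREBP factors. SREBP-2, from Srebf2, acts mainly on sterol genes, and SREBP-1, from Srebf1, mainly on fatty acid genes. Both are held in the endoplasmic reticulum by SCAP and INSIG proteins when sterols are plentiful and are cut free when they are scarce. HMGCS1 makes HMG-CoA and SQLE epoxidizes squalene on the way to cholesterol. ACACA makes malonyl-CoA, FASN builds palmitate from it, and SCD1 and SCD2 put a double bond into saturated fatty acids. Prostate epithelium is known for active lipid synthesis under androgen control.

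All 8 are protein-coding genes of GRCm38. Srebf1 (chr11:60199089-60222581, minus strand), Acaca (chr11:84129672-84401651, plus strand) and Fasn (chr11:120805846-120824547, minus strand) lie on chromosome 11. Srebf2 (chr15:82147181-82205379, plus strand) and Sqle (chr15:59315077-59331192, plus strand) lie on chromosome 15, and Hmgcs1 (chr13:119690379-119708260, plus strand) on chromosome 13. Scd1 (chr19:44394455-44407879, minus strand) and Scd2 (chr19:44293674-44306864, plus strand) are near neighbours on chromosome 19 with opposite strands.

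The RefSeq promoter set for GRCm38.p6 held entries for 5 of the 8 genes. Upstream windows of Srebf2, Hmgcs1 and Fasn are shown because these genes stand for the regulator, the sterol arm and the fatty acid arm. Each is written 5′ to 3′ on the gene's own strand and ends before the annotated transcript. Capitals mark TCACCCCA, the core of a sterol regulatory element, and the CCAAT box, which binds NF-Y, on either strand, so that ATTGG is a CCAAT box read on the opposite strand.
Srebf2 (chr15:82147019-82147180, plus strand): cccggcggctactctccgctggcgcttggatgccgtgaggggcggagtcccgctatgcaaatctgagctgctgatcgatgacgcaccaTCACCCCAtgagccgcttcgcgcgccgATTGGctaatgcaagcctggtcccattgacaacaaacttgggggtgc
Hmgcs1 (chr13:119690101-119690350, plus strand): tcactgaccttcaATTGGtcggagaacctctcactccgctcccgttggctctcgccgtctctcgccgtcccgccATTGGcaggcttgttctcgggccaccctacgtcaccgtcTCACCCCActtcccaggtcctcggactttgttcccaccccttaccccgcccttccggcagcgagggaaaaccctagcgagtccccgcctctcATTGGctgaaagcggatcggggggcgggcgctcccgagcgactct
Fasn (chr11:120824548-120824797, minus strand): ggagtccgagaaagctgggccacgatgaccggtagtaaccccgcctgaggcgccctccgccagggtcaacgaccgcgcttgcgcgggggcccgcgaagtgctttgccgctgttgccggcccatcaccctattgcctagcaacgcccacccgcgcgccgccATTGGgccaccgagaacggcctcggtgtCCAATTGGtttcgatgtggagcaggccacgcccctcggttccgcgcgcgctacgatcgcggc
TCACCCCA occurred at 1 place in the Hmgcs1 window and at 1 in the Srebf2 window, and the Fasn window did not hold these letters. Among all 32851 promoter entries 1.34% held it on either strand in their 250 upstream bases, and 0.898% in the first 162, the length of the Srebf2 window. CCAAT was found at 3 places in the Hmgcs1 window, 1 in the Srebf2 window and 3 in the Fasn window, 2 of which overlap each other on opposite strands. It was present in 33.8% of all 250-base windows and in 21.8% of the 162-base ones. CACGTG, an E box that SREBP-1 can bind, was absent from these 3 windows and present in 6.02% of all 250-base windows and 3.18% of the 162-base ones. GGGCGG, a GC box, was found at 2 places in the Hmgcs1 window, 1 in the Srebf2 window and 0 in the Fasn window, against 32.7% and 18.3% of all entries for those lengths. These matches are descriptions of letters and no binding was measured.

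Per kilobase of exon, so that genes of different length could be compared, the desaturases stood at the top in every group. In WT-TRAMP at 10 weeks (the table shared with KO-TRAMP) Scd2 reached 2427 ± 637 normalized counts per kilobase (mean ± SD) and Scd1 992 ± 282. Fasn followed at 313 ± 79.5 and Srebf1 at 254 ± 46.5, with ranges that overlapped. Srebf2 (133 ± 38.8), Hmgcs1 (101 ± 50.2), Sqle (85.5 ± 37.9) and Acaca (59.2 ± 8.86) formed the lower end, and each of these overlapped with its neighbour in the order. The ranges of Scd2, Scd1 and the next gene did not overlap in any group of the 4 tables, but the distance was small in WT-TRAMP at 30 weeks (KO-TRAMP table), where the lowest Scd2 value was 1421 and the highest Scd1 value 1405 per kilobase. Acaca shared 33.4% of its 31-base words with other annotated transcripts, nearly all of them with the gene model Gm5182, which had 10.7 to 29.8 normalized counts against at least 794 for Acaca. Scd1 shared 8.14% and Scd2 6.81% of such words with other genes, 253 of them with each other, and their copy Scd3 stayed between 1.1 and 53.9 normalized counts, against at least 1588 for Scd1.

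No member passed an adjusted p of 0.05 (limma on log2(normalized count + 1), Benjamini-Hochberg over all genes tested) in any comparison. Among all genes tested, the share called by that rule was 0.0129% for KO-TRAMP at 10 weeks, 0.00648% for A537T-TRAMP at 10 weeks, 0.213% for KO-TRAMP at 30 weeks and 0% for A537T-TRAMP at 30 weeks, and 0 of 8 members is close to these shares. At an unadjusted p under 0.05, 1 of 8 members was past the threshold for KO-TRAMP at 10 weeks (background 6.64%) and 0 of 8 at 30 weeks (13.5%), while A537T-TRAMP had 0 of 8 at 10 weeks (7.89%) and 0 of 8 at 30 weeks (7.21%). The median log2 fold change of the 8 members at 10 weeks was 0.021 for KO-TRAMP (-0.0060 over all genes tested) and -0.068 for A537T-TRAMP (-0.0078), and at 30 weeks -0.20 (0.010) and 0.21 (0.00025).

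**Figure D1:**
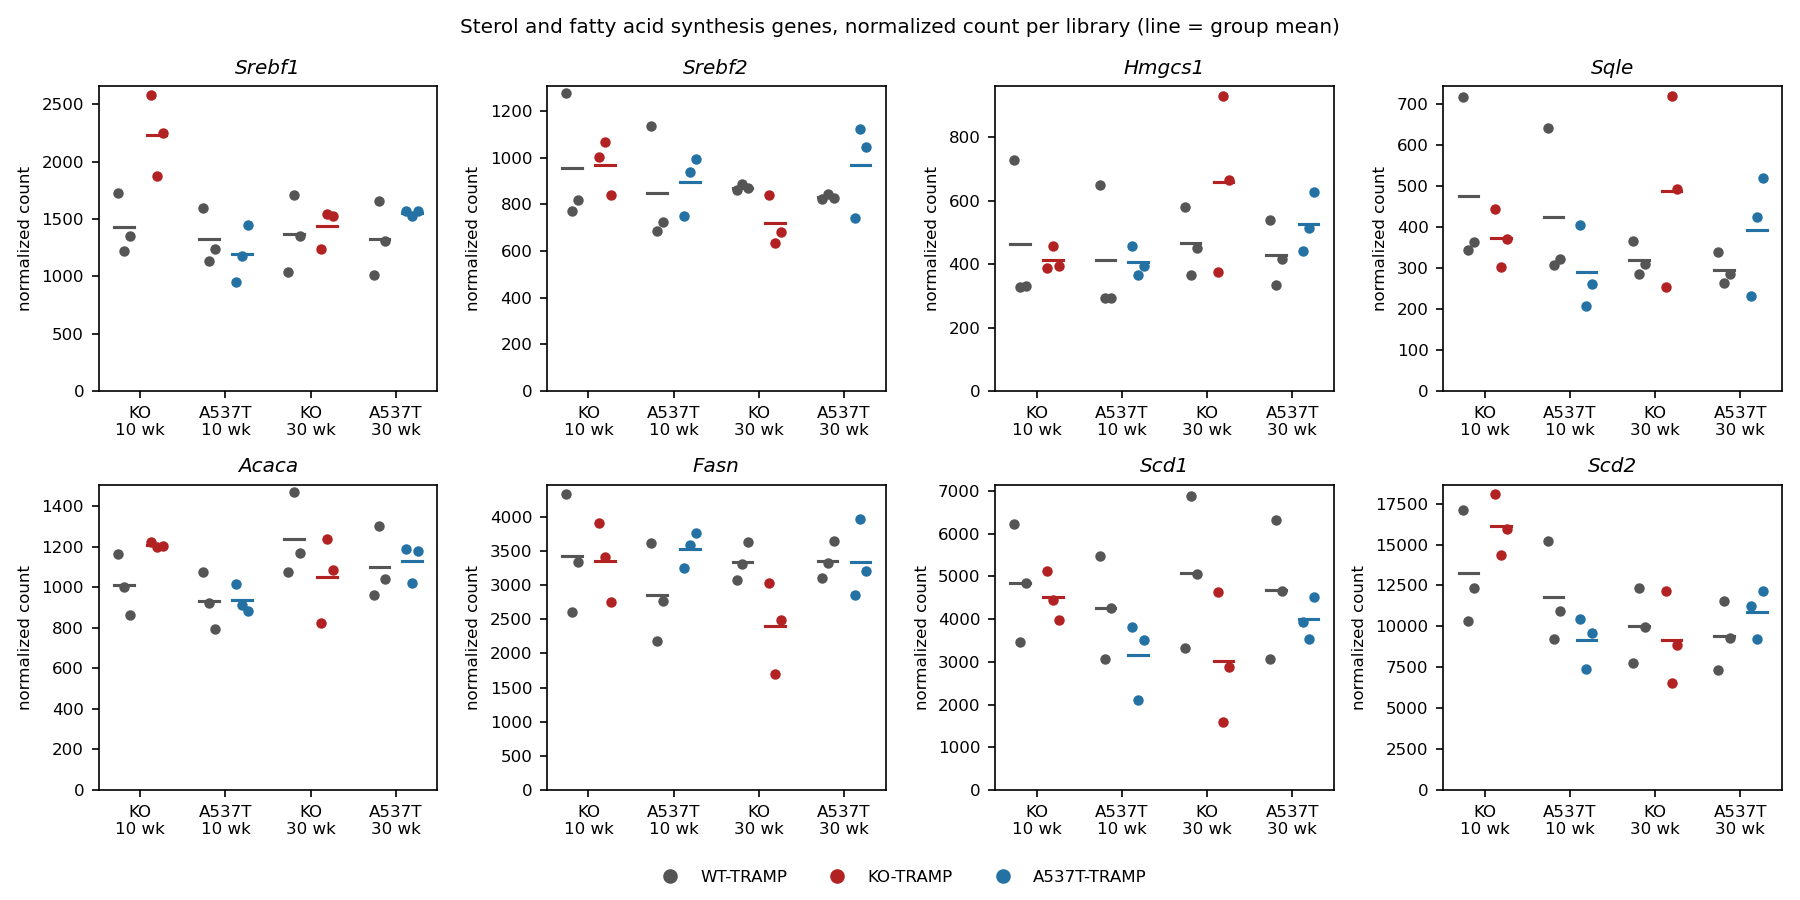
Normalized count of each gene (y axis, starting at 0) in every library, with a dot per library and a line at the group mean of 3; each pair on the x axis is WT-TRAMP (grey) beside KO-TRAMP (red) or A537T-TRAMP (blue) in their own table. KO-TRAMP lay wholly above WT-TRAMP for Srebf1 and Acaca at 10 weeks and wholly below it for Srebf2 and Fasn at 30 weeks, and the other pairs overlapped.

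**Figure D2:**
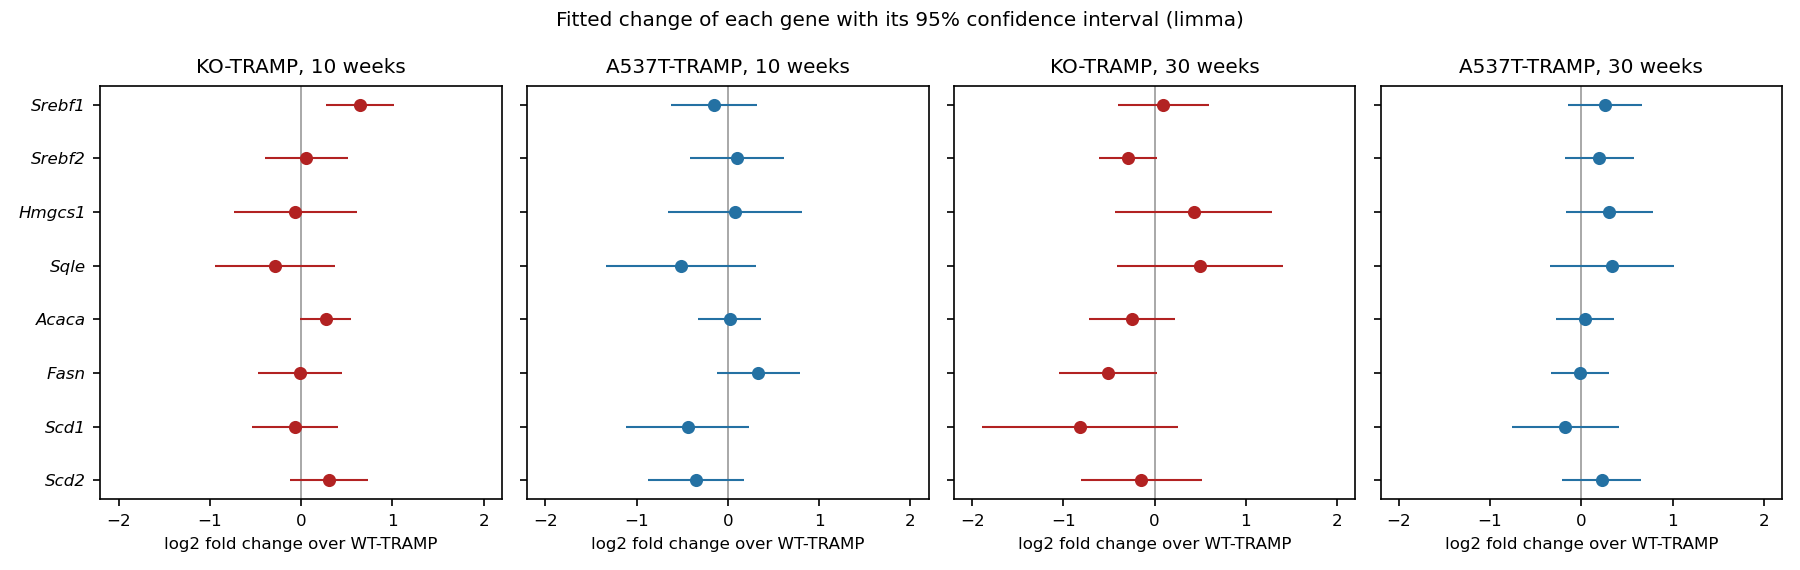
Fitted log2 fold change over WT-TRAMP (x axis) for the 8 genes (y axis) in the 4 comparisons, with dots at the limma estimate and lines for the 95% confidence interval, n = 3 per group. The interval of Srebf1 in KO-TRAMP at 10 weeks, 0.27 to 1.02, is the only one of 32 that leaves out 0, before adjustment for the number of genes.

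Srebf1, which encodes SREBP-1, showed the clearest separation of groups. At 10 weeks it had 1727, 1224 and 1350.0 normalized counts across WT-TRAMP libraries 1 to 3, whereas KO-TRAMP libraries 7 to 9 held 2578, 1874 and 2247. All 3 KO-TRAMP libraries lay above all 3 WT-TRAMP libraries, which was true in the same direction of 5.77% of all genes tested. The log2 fold change was 0.64 ± 0.162 SE (adjusted p = 0.683 by limma), with an unadjusted p of 0.00418 (limma) and a 95% interval from 0.27 to 1.02. On whole reads recovered from the same table, DESeq2 called it (adjusted p = 0.0344) as 1 of 83 genes among 15451, while edgeR, which called 0 genes, did not (adjusted p = 0.707), and the adjusted p ranged from 0.0344 to 0.999 over all settings tried. The log2 fold change stayed between 0.53 and 0.78 in those settings. Smooth muscle markers were also higher in these KO-TRAMP libraries, with 4 of 7 wholly above WT-TRAMP and the 7 taking 0.0717% to 0.11% of the reads against 0.0385% to 0.0631%, and their part in the Srebf1 values was not tested. The 10 luminal prostate markers summed to 1.35% to 1.47% of the reads in KO-TRAMP against 2.3% to 3.06% in WT-TRAMP. By gene they were mixed, with 4 of 10 above 0 and 6 below and a median log2 fold change of -0.065 (-1.34 to 2.12). Of the 10, 2 lay wholly below WT-TRAMP, where 6.26% of all genes did. Of 8 seminal vesicle markers tested, 4 lay wholly above WT-TRAMP, and the list took 0.000906% to 1.63% of the reads against at most 0.000459%. Their part was not tested either.

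In A537T-TRAMP at 10 weeks Srebf1 went from 1595, 1131 and 1241 in WT-TRAMP to 949.8, 1180.4 and 1448 in libraries 4 to 6, groups that overlapped, with a log2 fold change of -0.15 ± 0.199 SE (adjusted p = 0.798 by limma). At 30 weeks the values were 1034, 1710.2 and 1352 for WT-TRAMP libraries 10 to 12, whereas KO-TRAMP libraries 16 to 18 held 1242, 1544 and 1525, and all KO-TRAMP values fell inside the WT-TRAMP range. The fitted change was 0.097 ± 0.205 SE (adjusted p = 0.816 by limma). A537T-TRAMP libraries 13 to 15 held 1569, 1526 and 1572, a narrow band within the WT-TRAMP values of 1009.6, 1657 and 1311, at 0.26 ± 0.172 SE (adjusted p = 0.776 by limma) on the log2 scale. The change in KO-TRAMP at 30 weeks less that at 10 weeks was -0.55 (95% interval -1.16 to 0.067; limma, adjusted p = 0.403), and the difference between ages thus did not pass the test.

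Srebf2, which encodes SREBP-2, overlapped between groups at 10 weeks. WT-TRAMP held 1276, 771 and 818 and KO-TRAMP 1003, 1067 and 840.4, at a log2 fold change of 0.054 ± 0.197 SE (adjusted p = 0.972 by limma). In the other table WT-TRAMP held 1136, 687 and 725 and A537T-TRAMP 749.6, 939 and 993, at 0.10 ± 0.221 SE (adjusted p = 0.888 by limma). WT-TRAMP library 1 was the highest of its group for this gene, as it was for all 8 members. At 30 weeks the WT-TRAMP libraries were tight, with 861, 887 and 869.7, and KO-TRAMP libraries 16 to 18 had 842, 636 and 681, all below them. The log2 fold change was -0.29 ± 0.131 SE (adjusted p = 0.387 by limma), and 9.48% of all genes tested separated in that direction. Without KO-TRAMP library 16 it was -0.41 and passed the test (adjusted p = 0.0405 by limma), as did 3064 of all 16950 genes there. Without libraries 17 and 18, the ones rich in neuroendocrine markers, it was -0.052, with 1 KO-TRAMP library left. The smallest adjusted p over all settings was 0.000708, from limma with array weights, which called 10748 of all 16900 genes. A537T-TRAMP libraries 13 to 15 had 739.8, 1124 and 1046 around a WT-TRAMP group of 825, 844 and 828, with 1 library below and 2 above that group, at 0.20 ± 0.16 SE (adjusted p = 0.808 by limma).

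Hmgcs1, the cytosolic HMG-CoA synthase of sterol making, overlapped between groups at 10 weeks, with WT-TRAMP library 1 far above the other libraries. WT-TRAMP libraries 1 to 3 had 729, 329 and 331 in the KO-TRAMP table, where KO-TRAMP had 388, 455 and 394, and the log2 fold change was -0.064 ± 0.291 SE (adjusted p = 0.978 by limma). The KO-TRAMP values all lay between WT-TRAMP library 1 and the other WT-TRAMP libraries. In the A537T-TRAMP table WT-TRAMP had 651, 294 and 294 and A537T-TRAMP 458, 366 and 393, again inside the WT-TRAMP range, at 0.077 ± 0.315 SE (adjusted p = 0.943 by limma). At 30 weeks WT-TRAMP had 581, 365 and 451 and KO-TRAMP 377, 929 and 666. Libraries 17 and 18 lay above every WT-TRAMP library and library 16 near the lowest, at 0.43 ± 0.355 SE (adjusted p = 0.556 by limma). Without libraries 17 and 18 the sign turned (-0.28, with 1 KO-TRAMP library left). A537T-TRAMP had 441, 515 and 626 against 539, 334 and 415, with all 3 above the WT-TRAMP mean but overlapping the group, at 0.31 ± 0.204 SE (adjusted p = 0.776 by limma).

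Sqle, the squalene epoxidase, behaved much as Hmgcs1 did across libraries. At 10 weeks WT-TRAMP had 717, 344 and 362 and KO-TRAMP 443, 302 and 370.1, at a log2 fold change of -0.28 ± 0.284 SE (adjusted p = 0.887 by limma), which became 0.057 without WT-TRAMP library 1. A537T-TRAMP had 404, 207 and 261 against 640.2, 307 and 322, at -0.51 ± 0.351 SE (adjusted p = 0.634 by limma). The lowest values were in libraries 5 and 6, which also held over 1% seminal vesicle reads, and their part was not tested. Without these 2 only library 4 was left in A537T-TRAMP, and the value for that 1 mouse was 0.020. At 30 weeks WT-TRAMP had 365, 284 and 310.0 and KO-TRAMP 254, 717 and 493, at 0.49 ± 0.375 SE (adjusted p = 0.525 by limma). Libraries 17 and 18 were above all WT-TRAMP libraries and library 16 below all of them. The change was 0.90 without library 16 (limma, adjusted p = 0.0394), where 3064 of all 16950 genes were called, and -0.32 without libraries 17 and 18. Over all settings the adjusted p ran from 0.00164 to 0.915. The lowest came from limma with array weights, which called 10748 of all 16900 genes. Proliferation markers in the same KO-TRAMP libraries took 0.0485% of the reads in library 16 and 0.266% and 0.175% in libraries 17 and 18, against 0.0519% to 0.12% in WT-TRAMP, and their part in the Sqle values was not tested. A537T-TRAMP had 231, 423 and 518 against 338, 262 and 286, with library 13 below and libraries 14 and 15 above the WT-TRAMP group, at 0.33 ± 0.289 SE (adjusted p = 0.821 by limma).

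Acaca, the acetyl-CoA carboxylase of the cytosol, was the other member that separated at 10 weeks. KO-TRAMP had 1225, 1198 and 1202, a tight group wholly above the WT-TRAMP values of 1166, 1001 and 864. The distance to the highest WT-TRAMP library was small, and the log2 fold change was 0.27 ± 0.122 SE (adjusted p = 0.743 by limma). Together, 2 of 8 members (Srebf1 and Acaca) lay wholly above WT-TRAMP in this comparison against a background of 5.77%, and 0 of 8 wholly below against 6.26%. In A537T-TRAMP at 10 weeks Acaca had 1015, 915 and 882 against 1075, 923 and 794, at 0.018 ± 0.148 SE (adjusted p = 0.969 by limma). Its 95% interval ran from -0.33 to 0.37. At 30 weeks KO-TRAMP had 823, 1241 and 1084 against 1078, 1471 and 1171, at -0.25 ± 0.195 SE (adjusted p = 0.539 by limma), with library 16 below the WT-TRAMP group. Without libraries 17 and 18 it was -0.58 (adjusted p = 0.648 by limma). A537T-TRAMP had 1188, 1023 and 1179 against 963, 1305 and 1039, at 0.045 ± 0.135 SE (adjusted p = 0.963 by limma). The KO-TRAMP change at 30 weeks less that at 10 weeks was -0.52 (95% interval -1.04 to 0.0061; limma, adjusted p = 0.376).

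Fasn, the fatty acid synthase, overlapped between groups at 10 weeks. KO-TRAMP had 3912, 3414 and 2754 against 4336, 2603 and 3335 in WT-TRAMP, at a log2 fold change of -0.011 ± 0.199 SE (adjusted p = 0.996 by limma). A537T-TRAMP had 3251, 3583 and 3759.7 against 3621, 2176 and 2773, with 2 libraries close to the highest WT-TRAMP library, at 0.33 ± 0.194 SE (adjusted p = 0.61 by limma). At 30 weeks KO-TRAMP libraries 16 to 18 had 3032, 1696 and 2489, all below the WT-TRAMP values of 3072, 3304 and 3627, although library 16 missed the lowest WT-TRAMP library by little. The log2 fold change was -0.51 ± 0.22 SE (adjusted p = 0.378 by limma) with a 95% interval from -1.04 to 0.027, and it shrank to -0.13 without libraries 17 and 18. Srebf2 and Fasn made 2 of 8 members wholly below WT-TRAMP in this comparison, against a background of 9.48%, and 0 of 8 lay wholly above, against 10.8%. A537T-TRAMP at 30 weeks had 2858, 3971 and 3214 against 3109, 3319 and 3643, at -0.015 ± 0.136 SE (adjusted p = 0.989 by limma).

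Scd1, a stearoyl-CoA desaturase, had its lowest value of each age in libraries 5 and 17. At 10 weeks KO-TRAMP had 5119, 4448 and 3979 against 6233, 3473 and 4854, all inside the WT-TRAMP range, at a log2 fold change of -0.071 ± 0.204 SE (adjusted p = 0.965 by limma). A537T-TRAMP had 3819, 2115 and 3512 against 5480.2, 3057 and 4249, at -0.44 ± 0.287 SE (adjusted p = 0.624 by limma), and -0.18 without library 5. At 30 weeks KO-TRAMP had 4632, 1588 and 2869.8 against 3312, 6873 and 5059. Libraries 17 and 18 lay below every WT-TRAMP library and library 16 within them, and the change of -0.82 ± 0.442 SE (adjusted p = 0.423 by limma) had a 95% interval from -1.89 to 0.26, the widest of the members. It was -0.071 without libraries 17 and 18. A537T-TRAMP had 3935, 3539 and 4516 against 3071, 6326 and 4657, at -0.17 ± 0.249 SE (adjusted p = 0.907 by limma). Fat cells also make SCD1. The 10 adipocyte markers summed to 1076 to 1992 normalized counts in WT-TRAMP at 30 weeks and 167 to 655 in A537T-TRAMP. In KO-TRAMP libraries 16 to 18 they summed to 101, 987 and 674. In each line 7 of 8 tested markers lay wholly below WT-TRAMP, where 9.48% of all genes did in KO-TRAMP and 6.03% in A537T-TRAMP. The part of these markers in the 30-week Scd1 values was not tested. At 10 weeks they summed to 86.6 to 127 in WT-TRAMP, with Cidec, Cidea, Ucp1, Lep and Retn at 0.

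Scd2, the desaturase with the highest level here, pointed to opposite sides of WT-TRAMP in the lines at 10 weeks. KO-TRAMP had 18064, 14363 and 15924 against 17112, 10329.5 and 12346, all above the WT-TRAMP mean, at a log2 fold change of 0.31 ± 0.187 SE (adjusted p = 0.805 by limma). A537T-TRAMP had 10458, 7406 and 9577 against 15234, 9208 and 10944, all below that mean, at -0.35 ± 0.226 SE (adjusted p = 0.623 by limma). Both groups overlapped with WT-TRAMP. Leaving out 1 library at a time gave 0.14 (without library 2) to 0.51 (without library 1) in KO-TRAMP, and -0.51 (without library 2) to -0.15 (without library 1) in A537T-TRAMP. Without libraries 5 and 6 the A537T-TRAMP value was -0.14, from library 4 alone. At 30 weeks KO-TRAMP had 12148, 6546 and 8847 against 7766, 12372 and 9934, at -0.15 ± 0.273 SE (adjusted p = 0.789 by limma), with the lowest value again in library 17. A537T-TRAMP had 11223, 9201 and 12134 against 7317, 11567 and 9291, at 0.22 ± 0.184 SE (adjusted p = 0.809 by limma).

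In A537T-TRAMP 0 of 8 members separated from WT-TRAMP in either direction at 10 weeks, where 6.92% of all genes lay wholly above and 6.53% wholly below, and 0 of 8 at 30 weeks, where the shares were 7.36% and 6.03%. The change of each line at 30 weeks less its change at 10 weeks was fitted over 12 libraries per line. For KO-TRAMP it called 0% of all genes, and for A537T-TRAMP likewise 0%, at an adjusted p of 0.05, and 13.5% and 6.08% at an unadjusted p under 0.05, and 0 of 8 members passed either threshold in either line. For Sqle the difference between ages was 0.78 (95% interval -0.35 to 1.91; limma, adjusted p = 0.5) in KO-TRAMP and 0.84 (95% interval -0.25 to 1.94; limma, adjusted p = 0.738) in A537T-TRAMP, and both intervals reach from below 0 to above 1.5.

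The wider sterol list of 20 enzymes, which holds Hmgcs1 and Sqle, had 0 genes past the adjusted threshold in every comparison, and was described by its signs and medians. Its median log2 fold change at 10 weeks was -0.22 for KO-TRAMP and -0.34 for A537T-TRAMP, with 19 and 18 of 20 genes below 0. At 30 weeks it was 0.23 and 0.32, with 15 and 19 of 20 above 0. In A537T-TRAMP at 30 weeks 8 of 20 genes lay wholly above WT-TRAMP, where 7.36% of all genes did, and in KO-TRAMP 5 of 20, where 10.8% did. The 20 genes were read in the same 6 libraries, so their number does not add replicates. The 10-week medians leaned on single libraries. Library 1 had all 20 genes above the mean of its WT-TRAMP group (median 0.61 on the log2 scale), and without it the medians were 0.043 in KO-TRAMP, with 12 of 20 above 0, and -0.14 in A537T-TRAMP. Library 5 had all 20 below the WT-TRAMP mean (median -0.80) and 9.05% seminal vesicle reads. Without libraries 5 and 6 the A537T-TRAMP arm was library 4 alone, whose median was 0.16, with 16 of 20 above 0. All 9 seminal vesicle markers and all 7 smooth muscle markers lay wholly above WT-TRAMP in A537T-TRAMP at 10 weeks, where 6.92% of all genes did. The seminal vesicle list took 0.0488% to 9.05% of the reads there against at most 0.000459% in WT-TRAMP.

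At 30 weeks the A537T-TRAMP median of the sterol list stayed above 0 without each library in turn, between 0.19 (without library 15) and 0.56 (without library 13). The KO-TRAMP median stayed between 0.14 and 0.36, but was 0.011 without libraries 17 and 18, with 10 of 20 genes above 0 in the 1 KO-TRAMP library left. By library, the list stood at 0.44 and 0.76 in A537T-TRAMP libraries 14 and 15 and at 0.069 in library 13, and at 0.43 and 0.29 in KO-TRAMP libraries 17 and 18 and at 0.011 in library 16. Seminal vesicle genes took over 1% of the reads in 4 of the 6 libraries of the A537T-TRAMP comparison at 30 weeks, in both groups, so it could not be fitted without them. In KO-TRAMP at 30 weeks 7 of 8 macrophage markers lay wholly above WT-TRAMP, where 10.8% of all genes did. Of these, Lyz2 and C1qb were called, as were 0.213% of all genes. Of 10 luminal markers 5 lay wholly below WT-TRAMP, where 9.48% of all genes did, and 1 wholly above. The part of either marker list in the sterol list was not tested.

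**Figure D3:**
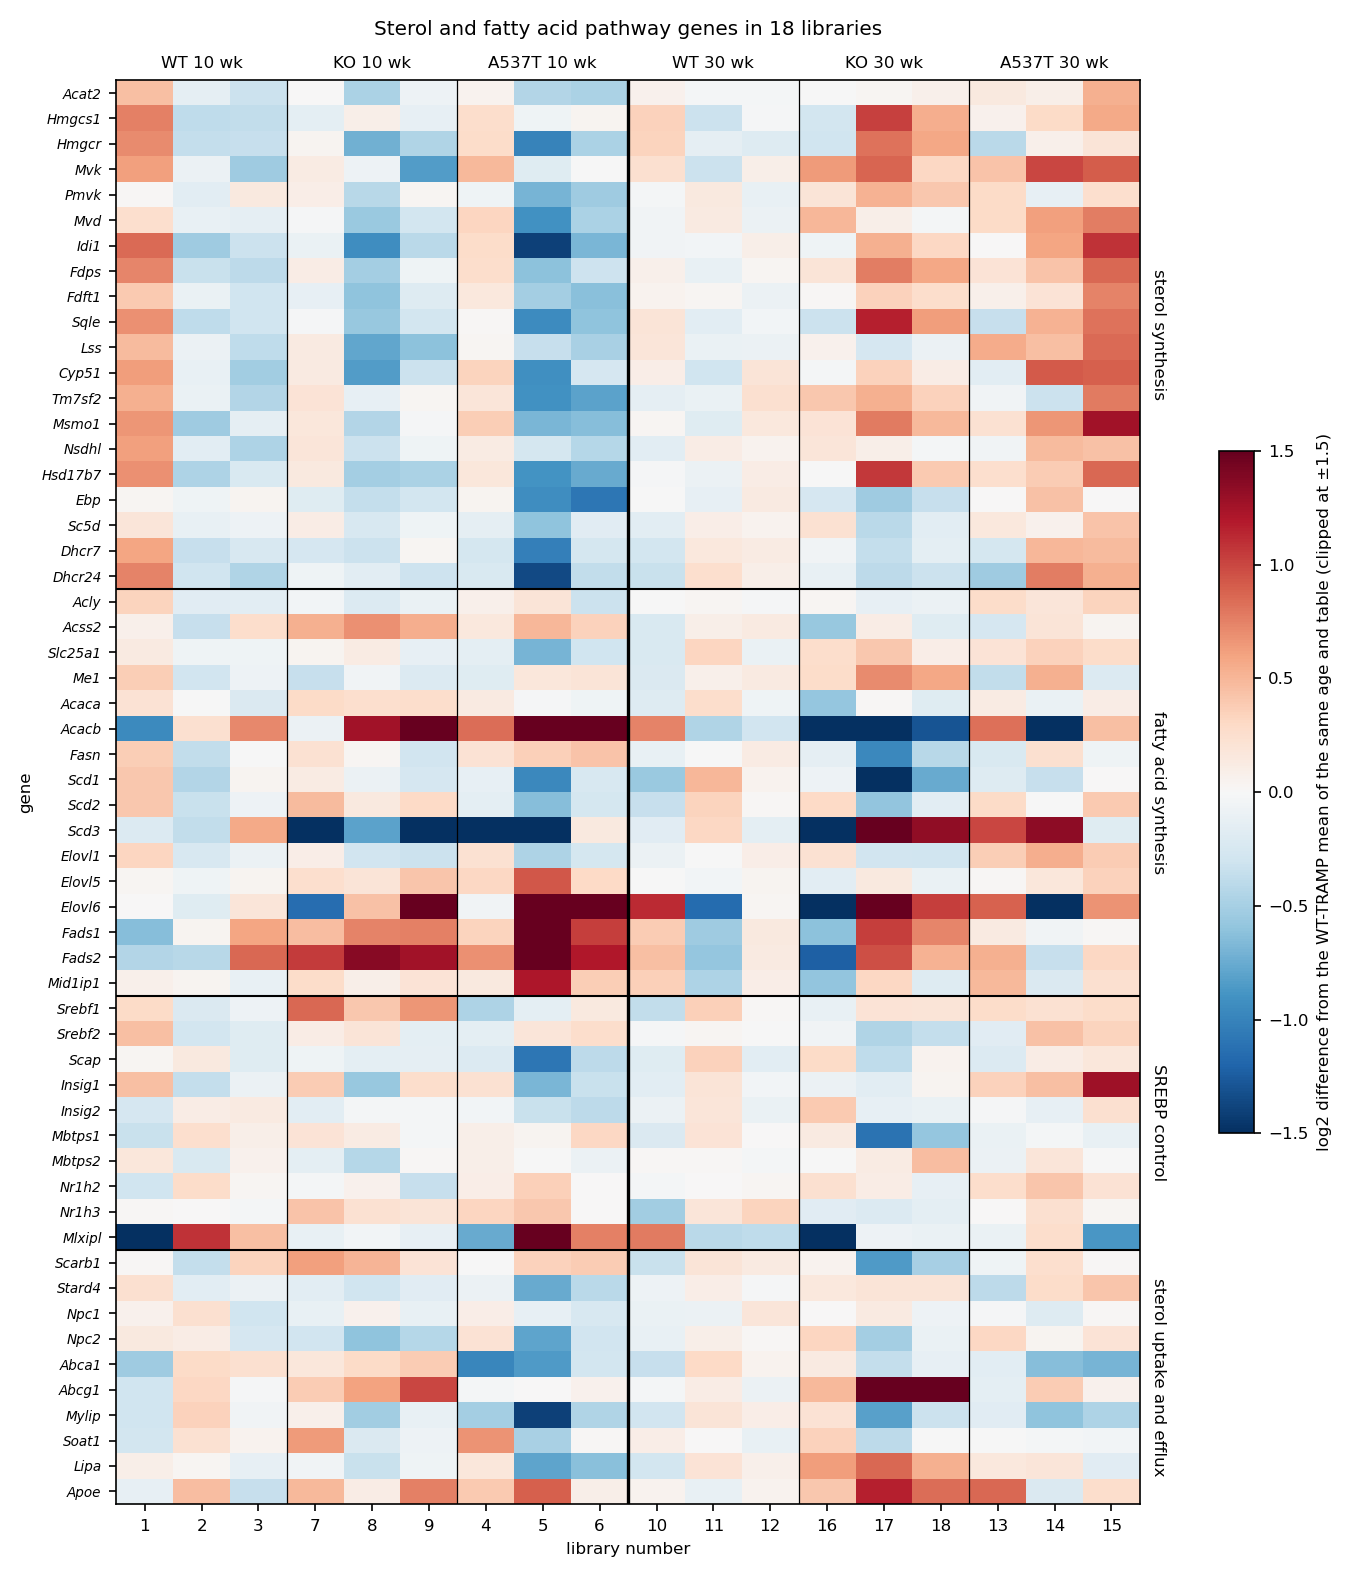
Log2 difference of the pathway genes shown (rows, grouped by list) from the WT-TRAMP mean of the same age and table in each of the 18 libraries (columns, grouped by genotype and age), red above and blue below, colours clipped at 1.5. The sterol block is red throughout in libraries 1 and 15 and blue throughout in libraries 2 (WT-TRAMP) and 5 (A537T-TRAMP).

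Other pathway genes were named by size of change, among those with a mean of at least 100 and no overlap between groups. In A537T-TRAMP at 30 weeks the 3 largest rises by this rule were those of Msmo1, Lss and Insig1. Mvk, which the rule left out, had the largest log2 fold change of the sterol list (0.78). Msmo1, a sterol C4 demethylase, had 215, 249.8 and 272 in WT-TRAMP, from low to high, and 286, 388 and 586 in A537T-TRAMP, at a log2 fold change of 0.71 ± 0.254 SE (adjusted p = 0.673 by limma). Lss, which closes the sterol rings, had 385, 389 and 473 and 564, 607 and 746, at 0.62 ± 0.144 SE (adjusted p = 0.439 by limma). Insig1, which holds SREBP back and is itself a target of it, had 424, 457 and 536 and 597, 642 and 1136, at 0.69 ± 0.246 SE (adjusted p = 0.673 by limma). None passed the adjusted threshold in limma, and DESeq2 called Lss (adjusted p = 0.0435) as 1 of 166 genes among 16261. Without library 15, which held 2.65% seminal vesicle reads, Msmo1 was at 0.44 and Insig1 at 0.40. Ebp, a sterol isomerase, was the sterol enzyme wholly below WT-TRAMP in KO-TRAMP at both ages, with 333, 352 and 374 against 406, 435 and 437 at 10 weeks (-0.27 ± 0.108 SE, adjusted p = 0.734 by limma) and 265, 301 and 321 against 350.3, 382 and 419 at 30 weeks (-0.38 ± 0.137 SE, adjusted p = 0.356 by limma).

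The fatty acid list, with 18 genes of which 16 or 17 passed the filter on low counts, had medians of 0.23 at 10 weeks and -0.12 at 30 weeks for KO-TRAMP, 0.20 and 0.045 for A537T-TRAMP, and 0 genes called. Fads2, the delta-6 desaturase, separated most in KO-TRAMP at 10 weeks, with 338, 392 and 422 against 119.8, 121 and 296, at 1.23 ± 0.331 SE (adjusted p = 0.71 by limma), and 1.66 without WT-TRAMP library 3 (adjusted p = 0.0369 by limma). Acss2, which makes acetyl-CoA from acetate, had 274, 276 and 304 against 149, 198 and 227, at 0.59 ± 0.174 SE (adjusted p = 0.716 by limma). Elovl5, which lengthens polyunsaturated fatty acids, lay wholly above WT-TRAMP in both lines at 10 weeks, at 0.29 ± 0.109 SE (adjusted p = 0.719 by limma) in KO-TRAMP and 0.51 ± 0.195 SE (adjusted p = 0.6 by limma) in A537T-TRAMP. The lines share their WT-TRAMP libraries, so this is not seen on independent controls, and in A537T-TRAMP it was 0.30 without library 5. In KO-TRAMP at 10 weeks 5 of 16 tested genes of this list lay wholly above WT-TRAMP, where 5.77% of all genes did, and 1 wholly below, where 6.26% did.

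Acacb, the mitochondrial carboxylase that restrains fatty acid oxidation, separated in 2 comparisons in opposite directions. In A537T-TRAMP at 10 weeks it had 35.8, 71.1 and 981 against 9.64, 23 and 33.3, at 2.74 ± 1.15 SE (adjusted p = 0.6 by limma). The highest value, that of library 5, lay far from the others. The mean over both groups, 192, met the rule for naming genes only through library 5, since every other value was 71.1 or lower. In KO-TRAMP at 30 weeks Acacb had 37.2, 50.4 and 80.4 against 145, 163 and 335, at -1.88 ± 0.424 SE (adjusted p = 0.245 by limma). The mean of 135 met the rule there through the WT-TRAMP libraries, since every KO-TRAMP value was 80.4 or lower. Acacb is abundant in fat cells, and the adipocyte markers were lower in the same KO-TRAMP libraries, as given for Scd1. In the A537T-TRAMP libraries at 10 weeks those markers summed to 156 to 546.0 normalized counts against 77.1 to 115 in WT-TRAMP. By gene they were mixed, since only 2 of the 10 passed the filter on low counts there. Of these, 1 had a log2 fold change above 0 (1.77) and 1 below (-0.18). The part of the adipocyte markers in the Acacb values was not tested. Mid1ip1, an activator of ACACA, had 205, 238 and 429 against 171, 191 and 194 in A537T-TRAMP at 10 weeks, at 0.57 ± 0.277 SE (adjusted p = 0.6 by limma), and Slc25a1, the citrate carrier, lay wholly below WT-TRAMP there at -0.38 ± 0.183 SE (adjusted p = 0.6 by limma). Without library 5, with its 9.05% seminal vesicle reads, the A537T-TRAMP values were 1.32 for Acacb, 0.26 for Mid1ip1 and -0.22 for Slc25a1.

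Among the genes of SREBP control and of sterol uptake and efflux, 0 of 10 and 0 of 11 tested (12 listed) were called in any comparison. Scap, the escort of SREBP, had 852, 1383 and 1569 in A537T-TRAMP at 10 weeks against 1599.8, 1848 and 2018, at -0.56 ± 0.236 SE (adjusted p = 0.6 by limma). Mylip, a ubiquitin ligase of sterol uptake, had 622, 1150.0 and 1196 against 1337, 1579 and 2091 there, at -0.79 ± 0.285 SE (adjusted p = 0.6 by limma). Without library 5 Scap was at -0.30 and Mylip at -0.48. In KO-TRAMP at 10 weeks Npc2, a lysosomal cholesterol carrier, was at -0.44 ± 0.137 SE (adjusted p = 0.716 by limma) and Stard4, a cytosolic one, at -0.21 ± 0.127 SE (adjusted p = 0.804 by limma), both wholly below WT-TRAMP, and Stard4 was at -0.088 without library 1. In KO-TRAMP at 30 weeks Abcg1, a cholesterol exporter, had 222, 603 and 868 against 149, 156 and 172, at 1.62 ± 0.486 SE (adjusted p = 0.327 by limma). Apoe, an apolipoprotein, had 1744, 2340.3 and 2952 against 1217, 1364 and 1367, at 0.80 ± 0.199 SE (adjusted p = 0.284 by limma), and Lipa, the lysosomal acid lipase, 205, 219 and 259 against 116, 149 and 163, at 0.67 ± 0.189 SE (adjusted p = 0.327 by limma). Abcg1 and Apoe were lowest of the KO-TRAMP group in library 16, and without the neuroendocrine-rich libraries 17 and 18 that 1 library left Abcg1 at 0.48, Apoe at 0.41 and Lipa at 0.63. DESeq2 called Abcg1 (adjusted p = 0.0091) and Apoe (adjusted p = 0.0115), and also Acacb (adjusted p = 0.0047), among 805 of 16900 genes. Macrophages also make Abcg1, Apoe and Lipa. The 8 macrophage markers summed to 4504, 3776 and 4184 normalized counts in libraries 16 to 18, against 1525 to 1789 in WT-TRAMP. Their part was not tested.

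Across the 18 libraries, each gene was expressed as the log2 difference from the WT-TRAMP mean of its own table, and members were compared as a description, since libraries of a table share that mean and their makeup. Hmgcs1 and Sqle had a Pearson r of 0.818 (Spearman rho 0.695), or 0.691 without the 2 libraries farthest from the median. Scd1 and Scd2 had 0.803 (rho 0.823), or 0.676 without 2 libraries, and Srebf2 and Fasn 0.792 (rho 0.802), or 0.772. Srebf1 followed Scd2 (0.608) and Acaca (0.571) more than Fasn (-0.0281), and Srebf2 had 0.0667 with Hmgcs1 and -0.0541 with Sqle. Of 9596 genes with a mean of at least 100 in every table, those with a pattern most like that of Sqle included Anln (0.933), a cytokinesis protein, and Hsd17b7 (0.93), a sterol enzyme. For Hmgcs1 the 3 most alike were Cenpe (0.845), Nrf1 (0.839) and Ckap2 (0.836). Scd1 was most like Araf (0.932), Zscan29 (0.929) and Sec14l4 (0.919), and Scd2 like Fchsd2 (0.892), Cryl1 (0.871) and Gcsh (0.868). For Fasn they were Nol6 (0.935), Ddx54 (0.91) and Zc3h7a (0.901), and for Srebf2 Vps18 (0.874), Zcchc8 (0.846) and Slc35a4 (0.818). The lowest likeness was that of Acaca, with Ttc27 (0.76), Psmg1 (0.746) and Rccd1 (0.695), and of Srebf1, with Htatsf1 (0.686), Anp32b (0.666) and Zmynd11 (0.661). Each is a top pick from 9596 genes. Without the 2 libraries farthest from the median of the member, these values ran from 0.333 (Srebf1 and Anp32b) to 0.935 (Sqle and Anln).

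**Figure D4:**
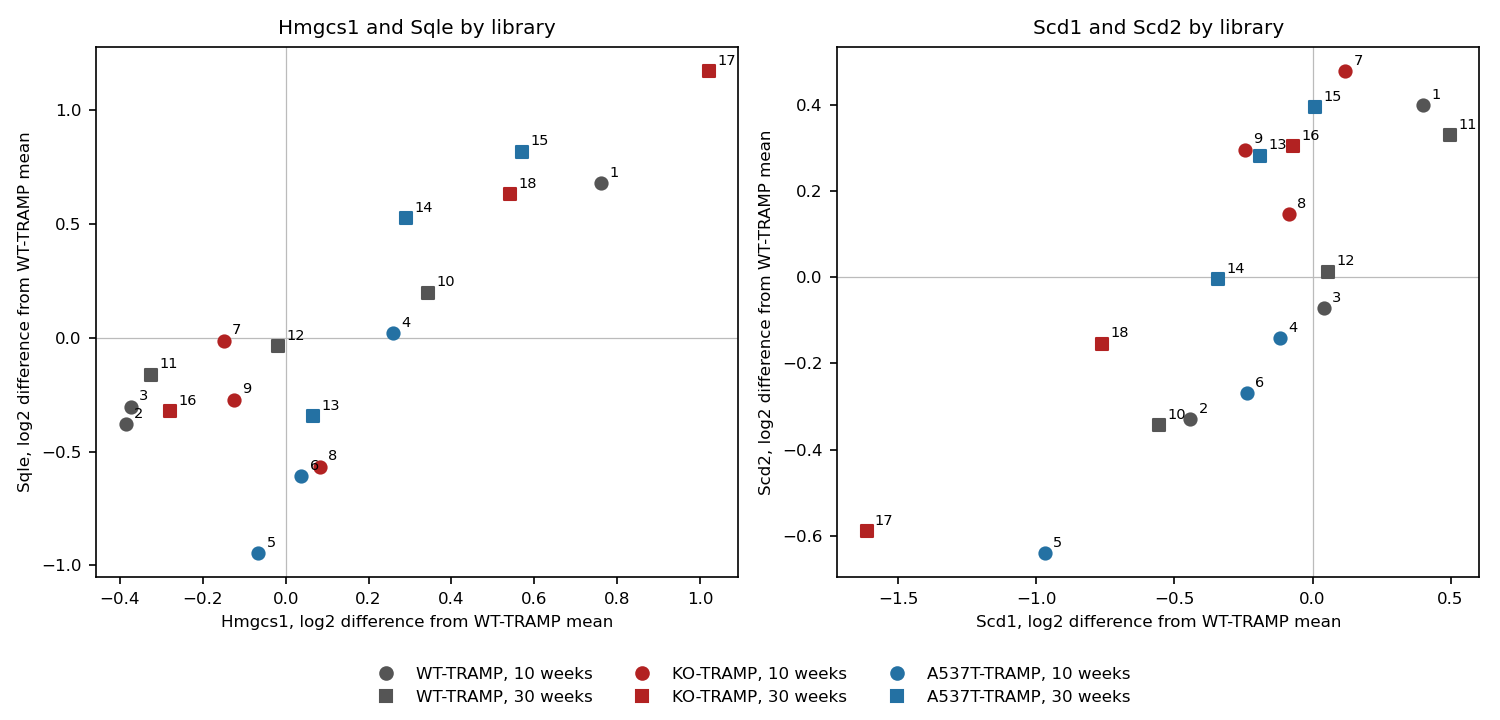
Log2 difference from the WT-TRAMP mean of the same age and table, with Hmgcs1 against Sqle in the left panel and Scd1 against Scd2 in the right one; each point is a library with its number, circles at 10 weeks and squares at 30 weeks, grey WT-TRAMP, red KO-TRAMP and blue A537T-TRAMP. Libraries 1, 15, 17 and 18 are high for both sterol genes, and libraries 5 and 17 are low for both desaturases.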

How the data were processed

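Per the labels and the study's methods, the authors trimmed reads with Trim Galore 0.4.1 and cutadapt 1.18, aligned them with STAR 2.7.3a to GRCm38.p6 masked for nuclear mitochondrial sequences, quantified GENCODE vM24 transcripts with Salmon and normalized gene counts with DESeq2 1.26. The 4 deposited tables, 1 per line and age, hold counts divided by size factors, a normalized signal per gene, scaled in each table separately. Scale was not the only difference for the shared WT-TRAMP libraries. Between the tables of an age, recovered reads were identical for 30.87% to 37.58% of the genes with reads. Fasn in library 1 had 4959 in the KO-TRAMP table and 4508 in the A537T-TRAMP table. Recovered reads are therefore specific to a table. Columns carry library numbers, and those found in both tables of an age were taken as WT-TRAMP. The labels give a replicate number within each group. Per the study's methods replicates were biological, and they were taken here as separate mice.

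Genes with a mean of at least 10 were tested with limma 3.58.1 (R 4.3.3, trended eBayes) on log2(normalized count + 1), two-sided, with Benjamini-Hochberg adjustment over all genes of a table and a threshold of 0.05. Fold changes on this scale understate those of low genes. The difference between ages was fitted over both tables of a line with an intercept for each table. All values gave whole reads within 0.01 of an integer once divided by the value of 1 read, and edgeR 4.0.16 and DESeq2 1.42.0 were run on these as alternatives. The limma step was tested on simulated data.

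The members and lists were chosen with earlier results of these data known. Other pathway genes were named where groups did not overlap and the mean was at least 100, taking the 3 largest changes per comparison and direction. Likeness used genes with a mean of at least 100 in all 4 tables, and 1 gene that this rule named is not reported here. Coordinates and exon lengths come from a GENCODE annotation of GRCm38 and upstream sequences from RefSeq. Motif letters were chosen after the sequences were seen.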

Additional observations from a re-analysis of the deposited data

Results flagged for a closer look

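Scd2 at 10 weeks lay on opposite sides of WT-TRAMP in the 2 lines. Every KO-TRAMP library lay above the WT-TRAMP mean of its table and every A537T-TRAMP library below it, and the log2 fold changes of the lines were 0.66 apart. Leaving out 1 library at a time gave 0.14 to 0.51 in KO-TRAMP and -0.51 to -0.15 in A537T-TRAMP, and A537T-TRAMP library 4 alone, without libraries 5 and 6, gave -0.14. The difference was not tested, and both lines were set against the same WT-TRAMP mice.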

How the results depend on the processing

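Alternatives changed the pseudocount, the filter on low counts, the scaling (TMM), the weighting of libraries, the count test (edgeR and DESeq2 on recovered reads) and the libraries used. DESeq2 called 1 member (Srebf1) and 1 gene of the 4 pathway lists, which hold the members, for KO-TRAMP at 10 weeks (83 of all 15451 genes) and 3 list genes at 30 weeks (805 of 16900), and for A537T-TRAMP 1 list gene at each age (148 of 15438 and 166 of 16261). Array weights called 5 members and 33 list genes in KO-TRAMP at 30 weeks, against 10748 of all 16900 genes tested, and 3 members and 26 list genes in A537T-TRAMP at 30 weeks, against 3388 of 16261. The cause was not tested. Leaving out 1 library at a time gave 0 to 1 list genes called at 10 weeks in each line (1 in KO-TRAMP without library 3, where 9 of 15447 genes were called, and 1 in A537T-TRAMP without library 4, where 65 of 15492 were), and for 30-week KO-TRAMP 0 to 2 members and 0 to 8 list genes, the highest of both without library 16, where 3064 of all 16950 genes were called. The members' median ran from -0.31 to -0.050 in KO-TRAMP and from 0.067 to 0.22 in A537T-TRAMP at 30 weeks, nearest 0 without libraries 11 and 10.

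Array weights turned the sign in KO-TRAMP at 10 weeks for Hmgcs1 (0.0076), Fasn (0.037) and Scd1 (0.022) and in A537T-TRAMP for Srebf1 (0.084) and Acaca (-0.031). For Hmgcs1 in A537T-TRAMP at 10 weeks edgeR gave -0.0093 and DESeq2 -0.019. Exclusions chosen after seeing the data were of libraries over 1% seminal vesicle reads and of libraries 17 and 18. The former turned Fasn (0.12) and Scd1 (0.016) in KO-TRAMP and Srebf2 (-0.14) and Sqle (0.020) in A537T-TRAMP at 10 weeks, and Srebf1 (-0.26) in KO-TRAMP at 30 weeks, where the members' median became -0.39. It left 1 A537T-TRAMP library (4) at 10 weeks and 1 WT-TRAMP library (11) in the KO-TRAMP comparison at 30 weeks, so those values rest on single mice. A537T-TRAMP at 30 weeks could not be fitted that way, with 1 library left per group. The latter turned Srebf1 (-0.11), Hmgcs1 (-0.28), Sqle (-0.32) and Scd2 (0.30), with a lone KO-TRAMP library assumed to vary like the others.

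Signs that turned when 1 library was left out had these ranges of log2 fold change. In KO-TRAMP at 10 weeks they were -0.081 to 0.28 for Srebf2, -0.26 to 0.32 for Hmgcs1, -0.47 to 0.057 for Sqle, -0.19 to 0.17 for Fasn and -0.29 to 0.13 for Scd1. In A537T-TRAMP at 10 weeks they were -0.032 to 0.33 for Srebf2, -0.11 to 0.46 for Hmgcs1 and -0.091 to 0.13 for Acaca. At 30 weeks they were -0.088 to 0.27 for Srebf1 and -0.37 to 0.074 for Scd2 in KO-TRAMP and -0.14 to 0.093 for Fasn, -0.046 to 0.17 for Acaca and -0.45 to 0.072 for Scd1 in A537T-TRAMP. For the A537T-TRAMP difference between ages they were -0.13 to 0.28 for Srebf2, -0.15 to 0.42 for Hmgcs1, -0.083 to 0.15 for Acaca and -0.0065 to 0.51 for Scd1. No paired analysis was possible because the columns carry no replicate number shared between groups. With 3 mice per group, changes of the size seen for most members lay within the spread of the libraries.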
